A study of Mus musculus with 8 samples.

Results

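Haemoglobin is built from alpha and beta globin chains and haem, and red cells are the tissue's main source of the messenger RNA for its chains. Nucleated precursors in marrow and spleen switch these genes on through the erythroid factors GATA1 and KLF1, and young red cells enter the blood without a nucleus but with globin RNA left over. RNA of a whole heart therefore carries red cell transcripts together with those of heart muscle, and the haem enzymes and membrane proteins of the red cell differ in how far other cells use them too.

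The genes described here are the adult globins Hba-a1, Hba-a2, Hbb-b1 and Hbb-b2, Alas2, Slc4a1, Bpgm, Fech and Ank1. All probes whose RefSeq accession led to one of these 9 symbols were taken. The genes were chosen by their measured signal in these same hearts, in earlier results where most of them stood higher in dtg hearts, so the values that compare the groups are descriptions and carry no test. Of the 9 symbols 8 had a probe, 1 each, among 39429 probes outside the controls, and all 8 lay well above background on all 8 arrays. Hbb-b1 had no matching accession. The beta globin gene Hbb-bt, which lies beside Hbb-bs in the C57BL/6J reference, had a probe and is shown next to the members. Its accession carries the name Hbb-bt in the gene table used here and may have been named Hbb-b1 when the array was designed. The count of 8 thus rests on the present names, and the Hbb-bt probe may be the one meant by Hbb-b1.

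Gene expression was measured on 1-colour arrays in 8 heart samples of male C57BL6 mice. The 4 control hearts came from mice that carried Cre recombinase and no floxed Igf1r allele, and the 4 double-transgenic (dtg) hearts from merCremer/+ IGFloxP/IGFloxP mice. Both groups received 4OH-tamoxifen, 500 µg on each of 10 days in a row from an age of 8 months, meant to cut exon 3 out of Igf1r, the receptor for insulin-like growth factor 1, and hearts were taken 6 weeks later. The labels name neither the promoter behind merCremer nor a step that washes blood out of the heart, and do not state whether each sample is a separate animal. A p-value here thus covers the spread among the 8 samples alone, part of which may be technical.

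The arrays lay on 2 slides, with control 1, control 2, dtg 1 and dtg 4 on slide 1 and the others on slide 2. Signal is given on a log2 scale on which 0 is the 75th percentile of that array, 737.6 to 1027 intensity units. Between 59.1% and 71.5% of an array's probes were above background by the scanner's call. The hearts control 4, dtg 3 and dtg 4 were the least like any other, each with a highest correlation of 0.987 or less with any other heart, where the other 5 reached 0.994 or more across 26085 probes (genes are not independent replicates). All 9 ventricular muscle markers were measured on these hearts, with a summed level of 2950 to 3280 times the 75th percentile in each. The only Igf1r probe averaged 0.34 ± 0.40 in the 4 control samples and -0.093 ± 0.33 in the 4 dtg samples (SD), with overlap between the groups. Where it binds with respect to exon 3 was not determined, so it does not check the labels.

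Of the members, 4 had a promoter window in the RefSeq-derived table of GRCm38.p6, as did Hbb-bt. Those of an alpha globin, a beta globin and the erythroid haem enzyme are shown. Capitals mark matches on either strand to a GATA word (AGATAA, also with T as its first letter or with G as its last), to the word CACCC, to the word CCAAT and to the word TATAA, in the 200 bases before the start of the gene, written 5′ to 3′ along the gene. The Hba-a1 window lies at chr11:32283472-32283671 (plus strand), that of Hbb-bt at chr7:103813924-103814123 (minus strand) and that of Alas2 at chrX:150547217-150547416 (plus strand).
Hba-a1: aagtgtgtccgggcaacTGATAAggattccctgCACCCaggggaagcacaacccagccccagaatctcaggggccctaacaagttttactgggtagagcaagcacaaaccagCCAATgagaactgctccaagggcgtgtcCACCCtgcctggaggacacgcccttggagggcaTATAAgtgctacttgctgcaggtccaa
Hbb-bt: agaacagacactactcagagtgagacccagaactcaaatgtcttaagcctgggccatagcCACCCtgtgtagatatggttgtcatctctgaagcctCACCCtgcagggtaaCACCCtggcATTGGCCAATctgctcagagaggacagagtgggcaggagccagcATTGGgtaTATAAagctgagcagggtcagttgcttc
Alas2: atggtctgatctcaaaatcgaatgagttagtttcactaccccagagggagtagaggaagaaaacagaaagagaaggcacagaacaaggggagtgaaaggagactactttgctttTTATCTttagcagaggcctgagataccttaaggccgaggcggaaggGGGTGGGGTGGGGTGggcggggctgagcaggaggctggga

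The Hba-a1 window held all 4 kinds of word, as did 0.536% of 32851 promoter windows of the same length. Counted back from the start of the gene as base -1, its GATA word began at base -183, its CCAAT word at base -88 and its TATAA word at base -27. The Hba-a2 window shared a run of 297 bases with that of Hba-a1, out of 300 bases in the table, so one sequence stands for both. The Hbb-bt window held CACCC at 3 places, CCAAT on either strand at 3 places and TATAA, and no GATA word. The Alas2 window held a GATA word on the opposite strand, from base -86 to base -81, and 3 neighbouring CACCC words on the opposite strand, with neither CCAAT nor TATAA. Bpgm, at chr6:34476156-34476355 (plus strand), held CCAAT at 2 places and none of the other words. Over all windows, 21.4% held a GATA word, 45.5% CACCC, 29.3% CCAAT and 18.5% TATAA, and a match is a description of letters and not a bound site.

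Globin signal differed about 2-fold between the hearts, and control 1 was the lowest heart for every globin probe. It was the lowest for 6 of the 8 members and for 15.3% of all probes, and nothing is read from that count, since low controls go with the choice of the members. Hba-a1, an adult alpha globin, lay at 7.13, 7.61, 7.53 and 8.13 in controls 1 to 4 and at 8.00, 7.94, 7.90 and 8.25 in dtg 1 to 4. The dtg hearts were close together and control 4 stood among them, while controls 1 to 3 were lower, so the groups overlapped through 1 control heart. The means were 7.60 ± 0.41 (SD, n = 4) and 8.02 ± 0.15 (SD, n = 4), a log2 difference of 0.43, or 1.34-fold. Controls spanned a 2-fold range and dtg hearts a 1.27-fold range.

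Hba-a2, the neighbouring copy of the alpha globin gene, lay at 8.37, 8.71, 8.66 and 9.18 in controls and at 8.87, 9.01, 8.82 and 9.26 in dtg hearts. Its order of hearts was close to that of Hba-a1, with dtg 4 and control 4 highest. The means differed by 0.26 (1.20-fold), from 8.73 ± 0.33 to 8.99 ± 0.20 (SD, n = 4 each), with overlap. Both alpha globin genes encode nearly the same transcript, so each probe may bind the RNA of both. The brightest spot of Hba-a2 reached 515480 intensity units and none of its spots was marked as saturated.

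Hbb-b2, named for an adult beta globin, lay at 3.75, 4.08, 4.30 and 4.50 in controls and at 4.61, 4.88, 4.23 and 4.91 in dtg hearts. Here dtg 1, dtg 2 and dtg 4 were above all controls and dtg 3 lay among them. The means were 4.16 ± 0.32 and 4.66 ± 0.31 (SD, n = 4 each), a difference of 0.50 or 1.42-fold. Hbb-b1 and Hbb-b2 are the beta globin pair of mouse strains other than C57BL/6, whose own pair is named Hbb-bs and Hbb-bt, so the strain named in the labels carries the latter, and which beta globin RNA the Hbb-b2 probe bound was not tested.

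Hbb-bt lay at 5.74, 6.13, 6.28 and 6.46 in controls and at 6.81, 6.97, 6.18 and 6.76 in dtg hearts. Its order of hearts was close to that of Hbb-b2, with dtg 3 below 2 of the controls. The difference of its means was 0.53 (1.44-fold), from 6.15 ± 0.31 to 6.68 ± 0.35 (SD, n = 4 each). Over the 8 hearts the correlation of the 2 beta globin probes was 0.967, that of the 2 alpha globin probes 0.96, and those between an alpha and a beta globin probe lay between 0.776 and 0.87, all as descriptions over points that share each array's scaling. Together the 4 globin probes held 0.348% to 0.554% of the summed probe signal of an array in control hearts and 0.473% to 0.608% in dtg hearts, a share that depends on how bright each probe is.

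**Figure D1:**
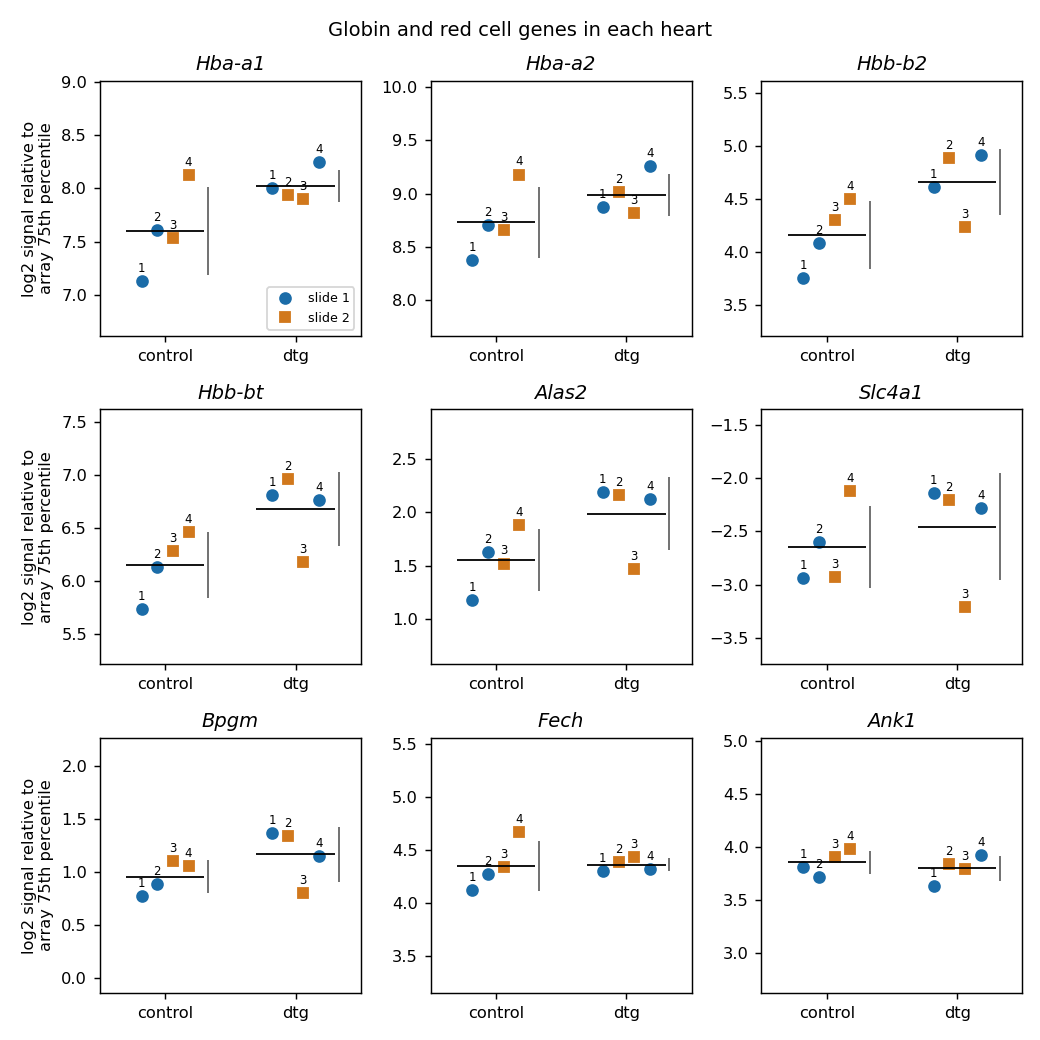
Log2 signal, with each array's 75th percentile as 0 (vertical axis, a span of 2.4 in every panel) in each control and dtg heart for the 8 members and Hbb-bt; numbers give the replicate, circles slide 1, squares slide 2, horizontal lines the group mean and vertical lines 1 SD on either side of it. Control 1 is the lowest heart for the 4 globin probes, and dtg 3 lies apart from the other dtg hearts for Alas2 (1.47) and Slc4a1 (-3.21).

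Of the other red cell genes, Alas2 and Slc4a1 varied about as much as the globins over the 8 hearts. Alas2, the erythroid form of the first enzyme of haem synthesis, lay at 1.17, 1.62, 1.52 and 1.88 in controls and at 2.20, 2.16, 1.47 and 2.13 in dtg hearts. Of the dtg hearts, 3 were above every control and dtg 3 was below 3 controls. The means were 1.55 ± 0.29 and 1.99 ± 0.35 (SD, n = 4 each), a difference of 0.44, or 0.61 without dtg 3 and 0.31 without control 1.

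Slc4a1, the band 3 anion exchanger of the red cell membrane, lay at -2.94, -2.60, -2.93 and -2.12 in controls and at -2.14, -2.20, -3.21 and -2.28 in dtg hearts. Its processed signal was dim, between 92.9 and 217 intensity units, although well above background on every array. Control 4 was its highest heart and dtg 3 its lowest. The groups thus overlapped across their whole width, with a difference of 0.19 between means of -2.65 ± 0.39 and -2.46 ± 0.50 (SD, n = 4 each), or 0.44 without dtg 3.

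Bpgm, which makes the 2,3-bisphosphoglycerate that lowers the oxygen affinity of haemoglobin, lay at 0.77, 0.89, 1.11 and 1.06 in controls and at 1.37, 1.34, 0.80 and 1.15 in dtg hearts. It had the same 3 dtg hearts above every control and dtg 3 among the lowest. The difference was 0.21 (1.16-fold) between means of 0.96 ± 0.15 and 1.17 ± 0.26 (SD, n = 4 each).

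Fech and Ank1 hardly differed between the groups. Fech, the enzyme that puts iron into haem in every cell type, lay at 4.12, 4.27, 4.34 and 4.67 in controls and at 4.30, 4.38, 4.43 and 4.32 in dtg hearts. All dtg values fell inside the control range, with means of 4.35 ± 0.23 and 4.36 ± 0.06 (SD, n = 4 each). Ank1, the ankyrin that ties the membrane skeleton of red cells to band 3 and has a short form in striated muscle, lay at 3.82, 3.72, 3.90 and 3.98 in controls and at 3.63, 3.84, 3.79 and 3.92 in dtg hearts. Control 4 was the highest heart and dtg 1 the lowest. Its difference was -0.056 and its fold range over the 8 hearts 1.27, the narrowest of the members.

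The members fell into 2 kinds by how far they varied. Hba-a1, Hba-a2, Hbb-b2, Alas2 and Slc4a1 spanned 2.17, 1.85, 2.23, 2.03 and 2.13-fold over the 8 hearts, while Bpgm, Fech and Ank1 spanned 1.51, 1.47 and 1.27-fold. The median over 26085 probes was 1.66-fold. In all, 7 of the 8 members had a higher mean in dtg hearts and 1, Ank1, a lower one, with a median difference of 0.24, where 56.8% of all 26118 kept probes had a higher mean and their median difference was 0.019. For none of the 8 did the values of the groups stay apart, as they did for 0.579% of the probes. Limma called none of the 8 and no probe at all (0%) at an adjusted p under 0.05, with 192 of 26118 probes (0.735%) at an unadjusted p under 0.05. Since the members were chosen with this contrast known, nothing is read from these counts. In bulk tissue, fewer red cells and less RNA per red cell cannot be told apart.

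Set against each other heart by heart, the mean of the globins and that of Alas2 and Slc4a1 lay farthest apart in dtg 3. Each gene was centred on its mean over the 8 hearts and the deviations were averaged. The mean of the 3 globin members deviated by -0.61, -0.23, -0.20 and 0.24 in controls 1 to 4 and by 0.14, 0.25, -0.042 and 0.45 in dtg 1 to 4. The mean of Alas2 and Slc4a1 deviated by -0.49, -0.095, -0.32 and 0.27 in controls and by 0.42, 0.37, -0.48 and 0.31 in dtg hearts. In 7 hearts the 2 means differed from each other by at most 0.28, and in dtg 3 the globins exceeded the pair by 0.43. Gene by gene, dtg 3 deviated by 0.091 for Hba-a1, -0.044 for Hba-a2 and -0.17 for Hbb-b2. It deviated by -0.30 for Alas2 and -0.66 for the dim Slc4a1, and by -0.24 for Hbb-bt, which is in neither mean. Alas2 thus lay nearer to the beta globin probes there than to the alpha globin probes or to Slc4a1.

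The mean of Bpgm, Fech and Ank1 followed with a smaller span, between -0.18 in control 1 and 0.16 in control 4. As group means, the globins were 0.40 higher in dtg hearts (1.32-fold), Alas2 and Slc4a1 0.31 higher (1.24-fold), and Bpgm, Fech and Ank1 0.054 higher (1.04-fold). The excess of globins over all 5 other members averaged -0.12 ± 0.14 among the 4 controls and 0.12 ± 0.15 among the 4 dtg hearts (SD). Over Alas2 and Slc4a1 alone, the excess averaged -0.041 ± 0.11 among the 4 controls and 0.041 ± 0.31 among the 4 dtg hearts (SD).

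Alpha and beta globins were not wholly in step. The mean of the 2 alpha globin probes minus that of Hbb-b2 and Hbb-bt, each centred, was 0.082, 0.13, -0.12 and 0.25 in controls 1 to 4 and -0.20, -0.37, 0.23 and -0.0065 in dtg 1 to 4. Control 4 and dtg 3 had the highest values and dtg 2 the lowest, and both groups held values of either sign.

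**Figure D2:**
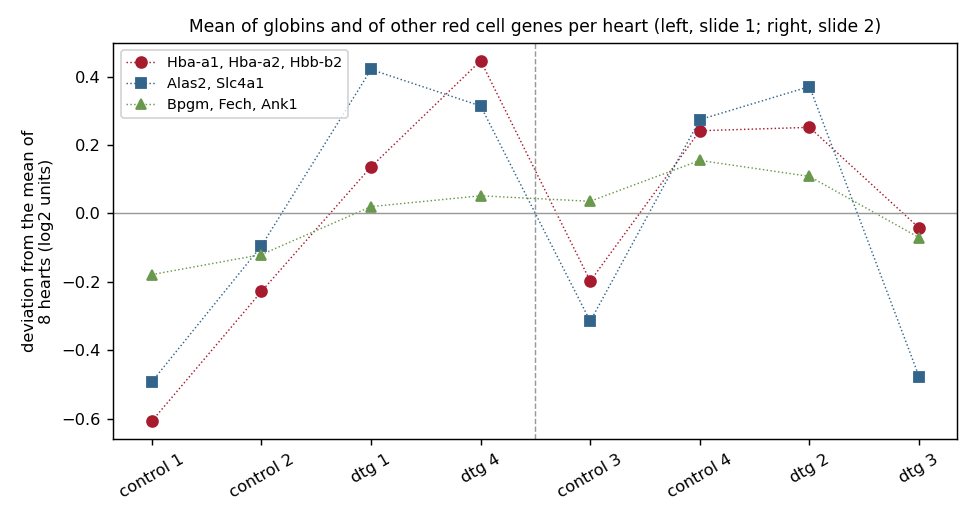
Deviation of each heart from the mean of the 8 hearts in log2 units (vertical axis) for the mean of Hba-a1, Hba-a2 and Hbb-b2 (circles), of Alas2 and Slc4a1 (squares) and of Bpgm, Fech and Ank1 (triangles); hearts of slide 1 are left and those of slide 2 right of the dashed line, and dotted lines only join points. The globins run from -0.61 in control 1 to 0.45 in dtg 4, and dtg 3 is the heart in which Alas2 and Slc4a1 (-0.48) lie farthest below the globins (-0.042).

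The red cell genes differed in how closely they followed Hba-a2, the globin probe with the highest mean, over the 8 hearts. The correlations are descriptions with no test, because the genes were chosen by a group difference that these hearts share. Alas2 gave a Pearson's r of 0.806 and a Spearman's rho of 0.714, and r was 0.587 without control 1 and dtg 4, the hearts farthest from the median of Hba-a2. Slc4a1 gave r = 0.699 and rho = 0.69, and r was 0.687 without those hearts. Alas2 thus leaned more on them than Slc4a1 did.

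Fech gave r = 0.685 and rho = 0.524, with r = 0.798 without them. Bpgm gave r = 0.541 and rho = 0.571, with r = 0.314 without them. Ank1 gave r = 0.418 and rho = 0.452, with r = 0.433 without them. After the mean of each group and slide was subtracted, r was lower for Alas2 (0.655), Slc4a1 (0.668) and Bpgm (0.0794) and higher for Fech (0.801) and Ank1 (0.542). A slide holds 4 hearts, too few for a correlation within it. The points of a pair share each array's scaling, and quantile normalization turned Ank1 to an r of -0.16.

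Within slides, the difference between the groups was large on slide 1 and small on slide 2. On slide 1 all 8 members were higher in dtg hearts (50.5% of all kept probes were), with a median of 0.54. On slide 2, 3 of 8 were higher (57.4% of all kept probes), with a median of -0.0068. In the globins the values on slides 1 and 2 were 0.76 and 0.093 for Hba-a1, 0.52 and -0.0040 for Hba-a2, and 0.85 and 0.16 for Hbb-b2. Alas2 differed by 0.76 and 0.12, Slc4a1 by 0.56 and -0.18, and Bpgm by 0.43 and -0.0097. Fech differed by 0.12 and -0.097 and Ank1 by 0.011 and -0.12. Each of these values compares 2 hearts with 2, and slide 2 holds control 4, a high heart for most members, and dtg 3, a low one for several. Atrial markers moved with the same contrast, with a median difference of 1.72 on slide 1 (4 of 4 higher) and -3.56 on slide 2 (0 of 4 higher), and their part in the members' values was not tested.

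The difference between the slides' differences was tested for every kept probe by the interaction of group and slide in limma. It was -0.66 (SE 0.37) for Hba-a1, -0.53 (SE 0.35) for Hba-a2, -0.69 (SE 0.37) for Hbb-b2, -0.65 (SE 0.40) for Alas2 and -0.74 (SE 0.56) for Slc4a1, with a limma adjusted p of 0.792 for each of them. None of the 8 members was called, where 0.00383% of the probes (1 of 26118) were. With 2 hearts of each group on a slide, these standard errors leave the interaction imprecise, and a missed threshold does not show that the slides gave the same difference. In simulated data the interaction fit recovered 0% of added differences of 0.5, 1 and 2 log2 units, so nothing is read from the missing calls.

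Between slide 2 and slide 1, with group in the fit, limma called 8.9% of 26118 kept probes, 2274 lower and 50 higher on slide 2, and 0 of the 8 members, a count too small to set against that share. Hba-a1 was 0.13 (SE 0.21) higher on slide 2 and Hbb-b2 0.14 (SE 0.21), while Alas2 differed by -0.022 (SE 0.22) and Slc4a1 by -0.13 (SE 0.29). Fech, at 0.20 (SE 0.12), had the smallest adjusted p of the members (limma adjusted p = 0.432).

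**Figure D3:**
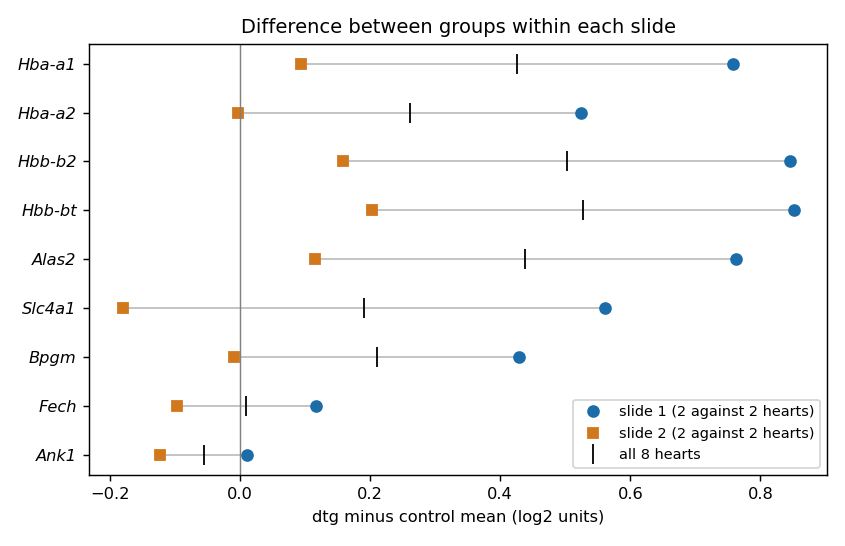
Difference of the dtg and control means in log2 units (horizontal axis) for each member and Hbb-bt, within slide 1 (circles), within slide 2 (squares) and over all 8 hearts (bars). Every slide 1 value is above 0 and right of its slide 2 value, with Hbb-b2 at 0.85 and 0.16.

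The genes whose pattern over the 8 hearts was most like that of the globin mean were mostly not red cell genes. Among 12949 named genes above background on every array, without the members, Hbb-bt and genes with only a clone or model name, 14 had a Pearson's r over 0.9 with it, against a median of 0.11, all as descriptions. The 10 highest were Ccl11 (r = 0.959), Rab18 (0.95), Sowahc (0.942), Pcdhb17 (0.937), Ppat (0.93), Zdhhc22 (0.929), Mettl15 (0.926), Vcpip1 (0.921), Itga4 (0.919) and Mpeg1 (0.919). Ccl11, the eosinophil chemokine eotaxin, lay at -1.86, -1.71, -1.62 and -1.21 in controls and at -1.46, -1.14, -1.46 and -0.94 in dtg hearts. Rab18, a small GTPase, ran from 2.27 in control 1 to 2.53 in dtg 4, the hearts that were also lowest and highest for Ccl11.

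Among the members themselves, r with the globin mean was 0.893 for Alas2, higher than all but 16 of the 12949 genes. It was 0.71 for Slc4a1, 0.684 for Bpgm, 0.60 for Fech and 0.282 for Ank1, which 519, 711, 1614 and 5181 genes exceeded. Since the members were chosen by a group difference that these hearts share, these ranks are descriptions and nothing is read from them.

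Other genes of red cell biology did not share one direction. In the lists below, limma called 0 genes higher and 0 lower in dtg hearts after adjustment over all probes (adjusted p = 1 for each gene named), and in no list did a gene keep its groups apart. Genes are named by the largest differences in a list, besides a few set by name.

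Of 5 measured embryonic and minor globins, 3 were higher in dtg hearts and 2 lower, with a median of 0.019. Besides Hbb-bt these were dim: Hbb-bh1, an embryonic beta-like globin, differed by -0.22 and was well above background on 7 arrays, and Hbq1a, a theta globin, by 1.20 on 5 arrays, with dtg 3 at -2.70 and the other hearts between -6.76 and -4.37. Hbb-y and Hba-x, the embryonic beta-like and alpha-like chains, were not well above background on any array. Of 2 globins of other cells, myoglobin (Mb), the oxygen store of heart muscle, lay between 8.71 and 9.06 in all hearts, and cytoglobin (Cygb) between 3.98 and 4.39.

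The remaining haem synthesis and export genes split evenly, 7 of 14 higher and 7 lower, with a median of -0.0085 and summed levels of 87.6 to 97.7 times the 75th percentile in control and 86.8 to 92.7 in dtg hearts. Alas1, the first enzyme of haem synthesis outside red cells, lay between 5.24 and 5.54 in all hearts. Cpox, coproporphyrinogen oxidase, differed by 0.23 and Uros, uroporphyrinogen III synthase, by -0.12. Of 11 iron supply genes 9 were higher (56.8% of all kept probes were), with a median of 0.067, and 6 were higher within each slide. Slc25a37, the mitochondrial iron importer of red cell precursors, differed by 0.20, with 0.34 on slide 1 and 0.066 on slide 2. Steap3, the ferrireductase of the transferrin cycle, differed by 0.17 and Aco1 by 0.15.

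Red cell membrane and skeleton genes were higher for 7 of 15 and lower for 8, with a median of -0.031. Epb42, Rhag and Kel, which mark red cells, were not well above background on any array. Stom, Ermap and Mpp1 differed by -0.19, 0.11 and 0.12. Of erythroid regulators, Klf1 and Gata1, which mark nucleated precursors, were well above background on 1 array each, and 6 of 9 measured genes were higher, with a median of 0.021. Epor, the erythropoietin receptor, lay between -0.995 and -0.59 in all hearts and differed by -0.13, Bcl11a, a repressor of embryonic globins, by -0.33, and Nfe2, which platelets and their precursors use as well, differed by 0.55 with dtg 3 at -2.61 and the other hearts between -4.51 and -3.87.

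Late red cell genes were higher for 12 of 19, with a median of 0.031, or 0.15 on slide 1 and -0.087 on slide 2. Ube2l6 and Bcl2l1 differed by 0.30 and 0.15. Haem breakdown and scavenging genes were higher for 6 of 10, with a median of 0.052: Hmox1, the inducible haem oxygenase, lay between -0.15 and 0.34 in all hearts and differed by 0.097, and Nqo1, Hmox2 and Hp (haptoglobin) differed by 0.15, 0.13 and -0.27.

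**Figure D4:**
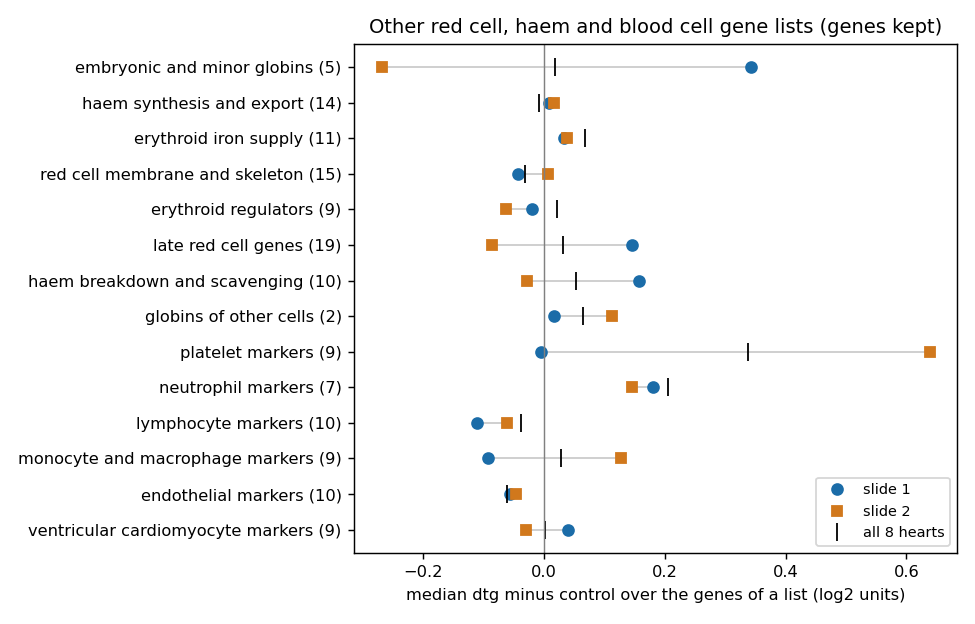
Median difference of dtg and control means in log2 units (horizontal axis) over the kept genes of each list (number in brackets), within slide 1 (circles), within slide 2 (squares) and over all 8 hearts (bars). Atrial markers are left out of the figure. The lists of haem synthesis, iron supply and red cell membrane genes lie within 0.07 of 0, and platelet markers reach 0.64 on slide 2.

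Markers of other blood cells did not follow the globins as one group. Platelet markers were higher in dtg hearts for 8 of 9 (56.8% of all kept probes were), with a median of 0.34. Their median was -0.0061 on slide 1 and 0.64 on slide 2, which holds dtg 3, the reverse of the globins. The mean of these markers had a correlation of -0.119 with the globin mean over the 8 hearts. Their summed level was 9.44 to 11.8 among controls and 11.2 to 13.9 among dtg hearts. Apart from Pf4, every platelet marker kept was highest in dtg 3. Gp9 and Treml1, both platelet membrane proteins, lay at -0.32 and -0.47 there. The other dtg hearts lay at -1.65 to -1.43 for Gp9 and -1.795 to -1.51 for Treml1, inside the range of the controls. Gp6 differed by 0.52, while Pf4, platelet factor 4, lay between 2.96 and 3.38 in all hearts.

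Neutrophil markers were higher for 5 of 7 (median 0.205), with summed levels of 58.1 to 73.5 in control and 58.0 to 72.8 in dtg hearts. Most of that sum came from the Csf3r probe, at a log2 signal of 5.75 to 6.145, with S100a9 next at 0.26 to 1.571. The correlation with the globin mean was 0.647 for S100a9, 0.587 for S100a8 and 0.488 for Retnlg. For the rest of the list it lay between -0.289 and 0.0717, all as descriptions. S100a8, a neutrophil calcium-binding protein, differed by 0.22, Retnlg by 0.36 and the dim Cxcr2 by 0.91, and Ngp, Ltf and Mpo were not kept. Lymphocyte markers were higher for 5 of 10 (median -0.038, summed level 2.36 to 6.35 and 2.69 to 5.66), with Cd79a, Cd3g and Cd79b at -0.46, 0.32 and 0.31. Cd4, the brightest of this list, and Cd3e were lower on slide 2, by -1.37 and -1.46 (limma adjusted p = 0.00258 and 0.00797). Monocyte and macrophage markers were higher for 5 of 9 (median 0.028, summed level 37.4 to 47.7 and 37.4 to 44.7), with Ptprc, the pan-leukocyte CD45, between -2.70 and -2.18 in all hearts and Ccr2, Mrc1 and Itgam at 0.19, 0.12 and -0.11. Endothelial markers were lower for 8 of 10 (median -0.062, summed level 82.9 to 106 and 82.6 to 96.0), with Kdr, Pecam1 and Tie1 at -0.21, -0.13 and -0.13. The part of these cells in the globin values was not tested.

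Ventricular muscle markers did not share one direction: 5 of 9 were higher and 4 lower, with a median of 0.0010, and Ryr2, Tnni3 and Mybpc3 at 0.16, 0.13 and 0.077. The 4 atrial markers all had a lower mean in dtg hearts, with a median difference of -0.90. They varied widely between hearts, with summed levels from 55.2 to 628 in control and from 65.1 to 489 in dtg hearts. Myl7, Sln and Myl4 differed by -1.02, -0.98 and -0.82 over all hearts, as the balance of the opposite differences on the 2 slides given above, and the mean of the atrial list had a correlation of 0.182 with the globin mean over the 8 hearts. Over all lists this correlation ran from -0.613 for endothelial markers to 0.679 for late red cell genes. It was 0.603 for haem breakdown and scavenging genes and 0.552 for ventricular markers, all as descriptions.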

How the data were processed

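Per the labels' protocols, 100 ng of total RNA from each heart was amplified and labelled with Cy3. Spots were quantified in Agilent Feature Extraction (version 10.7.3.1), as file headers and submitters' processing notes both state. The authors deposited, per the file headers, a processed signal for each spot on a linear intensity scale after local background subtraction. A second deposited table by the authors holds log2 values, which the values show to be quantile normalized and centred on each probe's median (r of 0.9998 or more per column), with column medians from -0.0322 to 0.0323. Its direction and tool are not given in the sources used here.

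Members and lists were chosen with earlier results of these data known. Probes were named by RefSeq accession without version in a GRCm38.p6 gene table (26369 of 39429 probes), used for names alone. Control and outlier spots were left out, spots averaged, and the array's 75th percentile subtracted. The 26118 probes well above background on at least 4 arrays entered limma 3.58.1 in R 4.3.3 (lmFit, eBayes, Benjamini-Hochberg), with group alone, with group and slide, or with their interaction. A list used the probe with the highest mean for each gene. Precision is limited by having 8 arrays. The fits were checked on simulated data with added differences. Of differences of 1 log2 unit, the group fit recovered 50.7%, the slide fit 38.8% and the interaction fit 0%. At 0.5 log2 units these shares were 2.99%, 4.48% and 0%, and at 2 log2 units 84.8%, 78.8% and 0%. Named genes were the members, the 3 largest differences of each list, 10 genes set by name and the 10 most like the globin mean. Some genes that this rule names are not reported here.

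Permutation tests planned for the correlations with Hba-a2 are not reported, since the choice of the members used these hearts.

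Same-numbered control and dtg hearts had correlations of their deviations of 0.525, -0.503, 0.146 and 0.224, so the numbers do not pair the samples. Alternatives were other background corrections, scalings and filters, 1 probe a gene, the deposited log2 values, slide or replicate number as a block, each slide alone, array weights, and leaving out hearts.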

Additional observations from a re-analysis of the deposited data

Results flagged for a closer look

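In dtg hearts, dtg 3 lay far below the other 3 for 2 members and for 2 means that hold them. Its log2 signal was 1.471 for Alas2 and -3.208 for Slc4a1, the mean of Alas2 and Slc4a1 was -0.869, and the mean of Alas2, Slc4a1, Bpgm, Fech and Ank1 was 1.459. The gap to the nearest dtg heart was 0.905, 0.865, 0.881 and 0.873 of the whole range of the 4 hearts. These 4 values came from 26 groups of 4 hearts that were looked at, they share genes and 1 heart, and chance alone sets apart about 1 group in 20. The Alas2 probe was not dim in dtg 3 (2379 intensity units), whereas Slc4a1 was (92.9 units). The platelet probe of Gp9 (-0.32) and the theta globin probe of Hbq1a (-2.70, well above background on 5 arrays) were at their highest in the same heart. Hbq1b, the other theta globin, was at its lowest there (-5.05), and the platelet gene Pf4 was highest in dtg 2 (3.38). The share of probes above background was highest in dtg 3, at 71.5%. The part of these in the low values was not tested.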

How the results depend on the processing

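The globin members stood 0.40 and the other red cell members 0.16 higher in dtg hearts on the log2 scale. Within slide 1 these were 0.71 and 0.38, and within slide 2 they were 0.083 and -0.059. Leaving out single hearts gave 0.26 to 0.54 and 0.083 to 0.26. The lowest of both came without control 1, and the highest without control 4 for the globins and without dtg 3 for the others. In the other alternatives the globins stayed between 0.33 and 0.64, while the other members went to 0.089 with median scaling and to 0.36 in a slide-blocked fit that left out the 3 hearts least like the others. The highest, 0.64, came with normexp as planned, which also brought the other members to 0.27, turned Ank1 to 0.19 and took Fech to 0.23. Median scaling turned Fech to -0.060. Adding Hbb-bt, chosen after seeing the data, gave 0.43. With the replicate block the globin value was 0.40 and 0 probes were called, as without it.

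No setting called a probe between the groups, while 14 to 847 reached an unadjusted p under 0.05. The 2324 probes called between slides became 1345 with quantile normalization, 1507 with median scaling, 1487 with probes above background on all arrays, 1329 with the authors' deposited values and 0 with normexp (220 at an unadjusted p under 0.05), and lay between 1091 and 2722 without single hearts. The 1 interaction call became 0 with normexp, 2 with normexp without dark spots, quantile normalization, median scaling or the deposited values, and 0 to 9 without single hearts, where a lone heart was assumed to vary like the others.

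Correlations of Hba-a2 depended on scaling. With median scaling, r was 0.873 for Alas2, 0.804 for Slc4a1, 0.767 for Bpgm, 0.832 for Fech and 0.734 for Ank1. Normexp gave 0.902 for Alas2, 0.842 for Bpgm, 0.894 for Fech and 0.871 for Ank1 and turned Slc4a1 to -0.667. Ank1 turned to -0.158 with quantile normalization and -0.165 with the deposited values. The cause was not tested.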

Other observations

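The genes most like the mean of Alas2 and Slc4a1 over the 8 hearts, a comparison chosen after the values were seen, were others than those most like the globins: the 2 sets of 10 shared 0 genes. Cd24a, the heat-stable antigen that mouse red cells and their precursors carry, was among them with r = 0.897, out of 12949 genes compared. It lay at -2.30, -2.19, -1.91 and -1.76 in controls and at -1.68, -1.72, -2.45 and -1.64 in dtg hearts, so that dtg 3 was again the lowest heart. Hfe, the haemochromatosis protein of iron control, was among the 10 with r = 0.871 and lay at 1.13, 1.24, 1.24 and 1.59 in controls and at 1.45, 1.37, 1.20 and 1.43 in dtg hearts. After the mean of each group and slide was subtracted, r was 0.892 for Cd24a and 0.89 for Hfe. With the globin mean instead, r of these 10 genes ran from 0.546 for Cacng6 to 0.851 for Tpd52l1. Sharing 0 genes at a cut of 10 thus does not by itself set the 2 patterns apart. These values are descriptions over 8 hearts, with no test.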
